A study of Mus musculus with 3 samples.

Results

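The cells described here are the Gata4- or Gata6-positive mesodermal cells of the mouse forelimb bud preparation at embryonic day 9.5 that carry little Lhx2 and Lhx9, given the working name flank and visceral lateral plate mesoderm. They were chosen from single-cell RNA-seq by measured values. A barcode was kept with at least 1000 detected genes and under 10% mitochondrial UMIs, where a UMI (unique molecular identifier) counts 1 captured RNA molecule. Members then had a sum of Gata4 and Gata6 of at least 1 CP10K (UMIs per 10000 UMIs of the cell), under 1 CP10K of Lhx2 plus Lhx9, of the endothelial genes Cdh5, Pecam1 and Emcn, and of the epithelial genes Epcam, Trp63 and Wnt6, under 5 CP10K of Krt8 plus Krt18, and embryonic globins under 2% of UMIs. This left 655 cells of 10659 kept barcodes and 22501 barcodes in all. They are called Gata-positive cells below, and they are set against 2689 limb mesenchyme cells, which had at least 2 CP10K of Prrx1, Tbx5 and Twist1 together and at least 2 CP10K of Lhx2 and Lhx9 together.

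The mutant embryos were Esco2 fl/fl;Prrx1-Cre Tg/0 and the control embryos were Esco2 fl/fl, so both groups carried the floxed Esco2 alleles and only the mutants the Cre transgene. Prrx1-Cre is driven by a Prrx1 enhancer active in limb bud mesenchyme and, less broadly, in the flank between the limbs. Each library was stated to pool 3 samples of 2 forelimb buds, from 2 male samples and 1 female sample. The cells were dissociated with trypsin, frozen and thawed before capture. Of the 3 replicates per genotype that the design states, 2 mutant libraries and 1 control library were analysed here. Values over libraries are given below in the order mutant 1, mutant 2 and control.

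The lateral plate mesoderm splits into a somatic layer, which forms the limb bud mesenchyme and the body wall, and a splanchnic (visceral) layer, which covers the gut and the heart. The cavity between the layers is the coelom, and its lining becomes the mesothelium. Gata4 and Gata6 encode zinc-finger transcription factors of the splanchnic mesoderm, heart and coelomic lining, while Lhx2 and Lhx9 encode LIM-homeodomain factors of the limb bud mesenchyme. Esco2 acetylates the cohesin subunit Smc3 during S phase, and cells that lose it have sister chromatids that are held together poorly.

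The 3 markers that the gate did not use were present in these cells and far lower in limb mesenchyme. There Wnt2 and Upk3b were nearly absent, while Kcnh7 was still detected. Wnt2, a secreted WNT ligand of the splanchnic mesoderm, had 154 and 135 CPM in the mutant Gata-positive cells and 135 CPM in the control ones (CPM, UMIs per 1000000 UMIs of the summed cells), against 1.34 and 0.898 CPM in mutant limb mesenchyme and 1.11 CPM in control limb mesenchyme. Kcnh7, which encodes a voltage-gated potassium channel subunit, had 1215, 996 and 1081 CPM in Gata-positive cells, against 39.5, 16.4 and 24.4 CPM in limb mesenchyme. Upk3b, a uroplakin of the mesothelial surface, had 70.3, 93.1 and 58.6 CPM in Gata-positive cells against 0.743, 0.731 and 0.148 CPM in limb mesenchyme. For each of the 3 genes the values of the 2 classes did not overlap. Their mean log2 ratios, computed within each library on CPM plus 5, were 4.58 ± 0.06 for Wnt2, 5.18 ± 0.39 for Kcnh7 and 3.81 ± 0.25 for Upk3b (SD, n = 3 libraries). The cells were chosen by their own expression values, so these ratios describe the population and carry no test. Gata4 and Gata6, which the gate used, had 111, 63.9 and 69.1 CPM and 214, 179 and 176 CPM in members.

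The starts of the 3 marker genes are shown to place the GATA motif, since the population was chosen by GATA factors. The windows run from 250 bases before to 50 after the gene start, on the gene's own strand, from RefSeq on GRCm38.p6. Capitals mark a GATA motif, which is AGATAA or else AGATAG or else TGATAA or else TGATAG, or on the other strand TTATCT or else CTATCT or else TTATCA or else CTATCA. The Wnt2 window is chr6:18030396-18030695 on the minus strand, the Upk3b window is chr5:136038246-136038545 on the plus strand, and the Kcnh7 window is chr2:63184238-63184537 on the minus strand.
Wnt2: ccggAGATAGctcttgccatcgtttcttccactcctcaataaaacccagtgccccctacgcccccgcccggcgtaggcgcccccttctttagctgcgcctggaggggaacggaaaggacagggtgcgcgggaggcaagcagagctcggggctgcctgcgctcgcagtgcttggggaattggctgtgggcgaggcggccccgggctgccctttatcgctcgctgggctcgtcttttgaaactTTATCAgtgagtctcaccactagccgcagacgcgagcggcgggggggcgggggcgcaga
Upk3b: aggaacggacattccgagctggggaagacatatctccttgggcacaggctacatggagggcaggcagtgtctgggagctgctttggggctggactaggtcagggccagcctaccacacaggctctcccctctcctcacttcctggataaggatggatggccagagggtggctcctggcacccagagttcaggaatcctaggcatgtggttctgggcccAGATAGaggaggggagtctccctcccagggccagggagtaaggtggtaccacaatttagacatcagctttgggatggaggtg
Kcnh7: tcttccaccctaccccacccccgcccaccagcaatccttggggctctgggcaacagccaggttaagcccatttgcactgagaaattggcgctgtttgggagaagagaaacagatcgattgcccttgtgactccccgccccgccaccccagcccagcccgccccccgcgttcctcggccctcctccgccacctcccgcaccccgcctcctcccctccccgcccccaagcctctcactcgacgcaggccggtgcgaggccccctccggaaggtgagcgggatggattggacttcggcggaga
Wnt2 held 2 matches, starting 246 and 9 bases before its start, Upk3b held 1, starting 32 bases before, and Kcnh7 held none. Of all 32851 windows in the table, 9778 (29.8%) held a match, so a match in such a window is common. Among genes higher in Gata-positive cells than in limb mesenchyme by the rule given below, 61 of 254 with a window held one (24.0%), against 26 of 89 lower genes (29.2%) and 1635 of 8035 tested genes (20.3%). A match is a string of letters and does not show that a factor binds there.

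**Figure D1:**
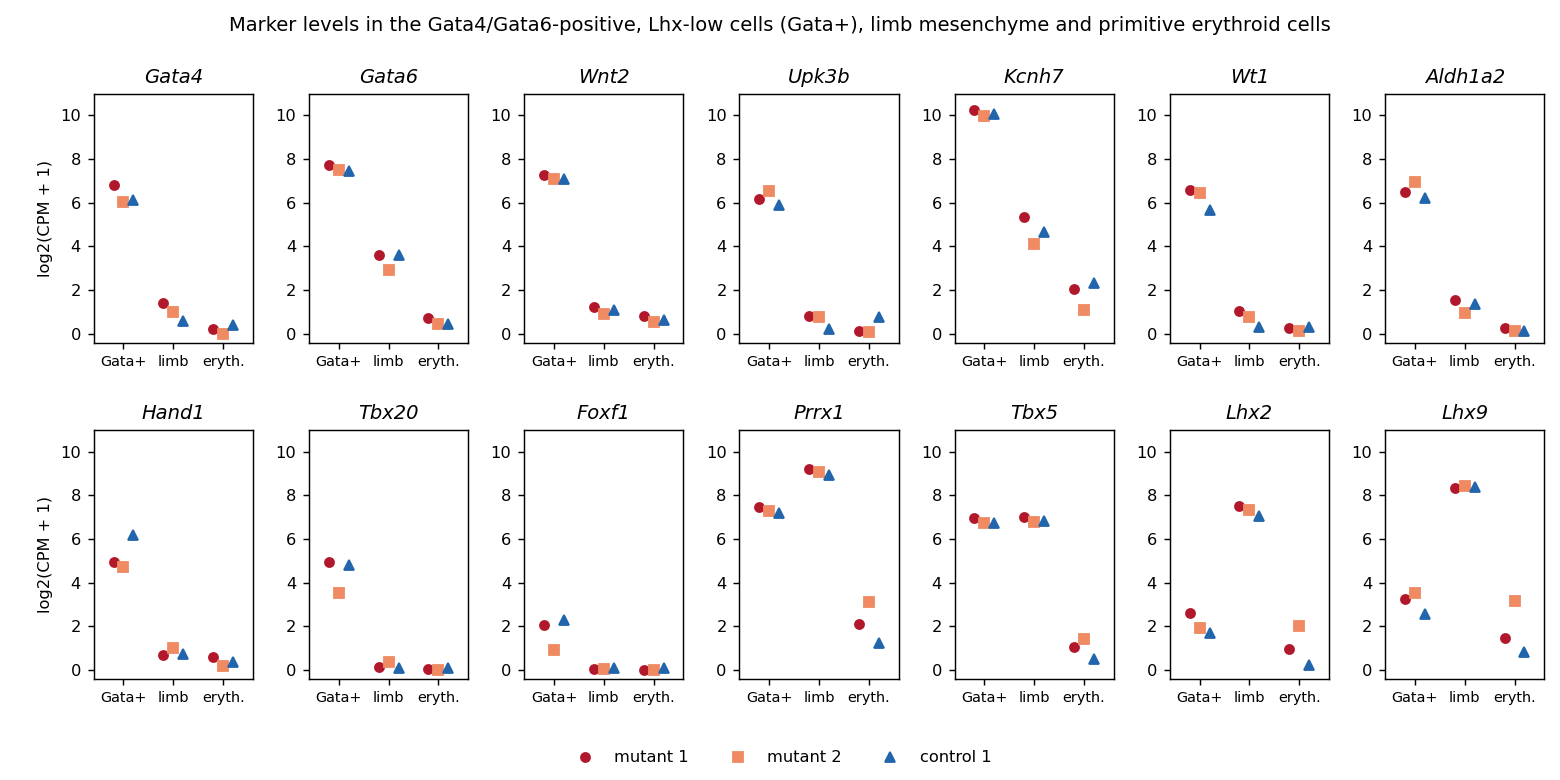
Levels of 14 genes, as log2 of CPM plus 1, in Gata-positive cells (Gata+), limb mesenchyme and primitive erythroid cells, with a point per library. Wnt2, Upk3b and Kcnh7 lie far above limb mesenchyme in all 3 libraries, Tbx5 lies at about the same level in both classes, and Foxf1 lies near 0.

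The share of kept barcodes that met the rule was 7.36% in mutant 1 (236 cells, 95% Clopper-Pearson interval 6.48 to 8.32%), 4.23% in mutant 2 (187 cells, 3.65 to 4.86%) and 7.67% in the control (232 cells, 6.74 to 8.67%). The control share lay above both mutant shares, but the mutant libraries differed more from each other than mutant 1 did from the control. With 1 control library the smallest exact permutation p is 0.333, so that test cannot reach 0.05, and no other test of the share was run. Limb mesenchyme took 21.0%, 34.0% and 16.9% of kept barcodes, so a share also moves with how much limb mesenchyme was captured. Intervals cover counting error only. Summed UMIs of the Gata-positive cells came to 9532421, 7798258 and 15075502.

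Detection was compared after each cell was thinned to 5000 UMIs. A Wnt2 UMI was then present in 50.7%, 41.6% and 50.0% of Gata-positive cells, against 0 of 601, 0 of 452 and 0 of 380 primitive erythroid barcodes, which should not make Wnt2 and serve as a background for free RNA. Median depth before thinning was 34639, 42000 and 54727.5 UMIs in Gata-positive cells and 67409, 61039 and 97160 UMIs in erythroid barcodes. Without thinning the shares were 83.1%, 81.8% and 76.7%, against 3.48%, 2.63% and 4.91% of erythroid barcodes. Kcnh7 was detected in 86.8%, 78.1% and 76.2% of thinned Gata-positive cells and Upk3b in 23.35%, 27.53% and 19.05%. Upk3b was found in a minority of the cells at this depth and Kcnh7 in most of them. Gata6 was detected in 97.9%, 98.4% and 95.3% of members before thinning, and Gata4 in 53.8%, 38.5% and 56.5%.

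The label was only partly borne out. Of the visceral mesoderm factors, Hand2 had 87.0, 96.4 and 99.8 CPM in Gata-positive cells against 25.8, 26.4 and 29.2 CPM in limb mesenchyme, and Zfpm2, a cofactor of GATA proteins, had 266, 188 and 191 CPM in Gata-positive cells against 22.9, 10.8 and 13.1 CPM in limb mesenchyme. Both factors stood above limb mesenchyme in every library. Foxf1, the forkhead factor that defines splanchnic mesoderm, had 3.15, 0.898 and 3.85 CPM, and Nkx2-3 and Nkx3-2, which mark gut-wall mesoderm, had 0 UMIs. Prrx1, Tbx5 and Twist1 together reached 2 CP10K in 87.7%, 79.1% and 83.2% of members. Most of the cells thus carried limb-field factors while the defining gut-wall factors were at or near 0, so they are named by the rule here and not as visceral mesoderm. Of markers of other cell types, the 7 endothelial genes outside the gate summed to 37.9, 39.0 and 47.7 CPM in Gata-positive cells, against 45.0, 41.8 and 26.3 CPM in limb mesenchyme and 32.3, 23.7 and 32.4 CPM in erythroid barcodes. The 12 heart muscle genes summed to 85.3, 143 and 89.5 CPM in Gata-positive cells, against 12.2, 9.39 and 13.3 CPM in limb mesenchyme and 2.12, 0.951 and 2.17 CPM in erythroid barcodes. Of these, Tnni1, a troponin subunit, had 37.8, 50.1 and 50.1 CPM in Gata-positive cells, while Nkx2-5, which defines heart muscle precursors, had 0 UMIs.

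A second set of Gata-positive barcodes, left out of the 655 only because Krt8 plus Krt18 reached 5 CP10K, held more of the visceral and coelomic genes. These 231 keratin-positive cells had 24.98, 14.8 and 23.6 CPM of Foxf1, 252, 456 and 399 CPM of Hand1 and 137, 135 and 135 CPM of Upk3b. They made up 1.81%, 1.67% and 3.27% of kept barcodes. At the Gata threshold the levels showed no sharp step. Cells just inside, at 1 to 1.5 CP10K of Gata4 plus Gata6 (45, 55 and 63 cells), had 115, 109 and 110 CPM of Wnt2, and cells just outside, at 0.5 to 1 CP10K (80, 74 and 88 cells), had 79.8, 66.9 and 63.2 CPM. Prrx1 had 228, 201 and 159 CPM just inside and 280, 258 and 227 CPM just outside.

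Members differed among themselves in mesothelial genes, described here without a test. Cells with a Gata4 UMI, set against those with Gata6 alone, had 107, 164 and 81.9 CPM of Upk3b against 20.8, 46.3 and 20.8 CPM in the Gata6-only cells, and 129, 157 and 70.4 CPM of Wt1 against 46.8, 41.6 and 15.0 CPM in the Gata6-only cells. Prrx1 lay lower in the Gata4 cells, at 112, 93.6 and 120 CPM against 257, 191 and 187 CPM in the Gata6-only cells, and Wnt2 differed less, at 174, 148 and 156 CPM against 126, 126 and 102 CPM in the Gata6-only cells. In every library the 2 subsets kept the same order for these 4 genes. Cells with an Upk3b UMI (99, 87 and 90 cells) showed the same arrangement, with Wt1 at 172, 156 and 91.5 CPM against 25.8, 18.99 and 11.8 CPM and Aldh1a2 at 175, 232 and 132 CPM against 15.4, 14.4 and 19.4 CPM in the rest. Wt1 is a zinc-finger factor of coelomic epithelium, and Aldh1a2 makes retinoic acid.

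Set against limb mesenchyme, 347 genes (3.36%) were at least 2-fold higher in Gata-positive cells in all 3 libraries and 121 (1.17%) were at least 2-fold lower, of the 10321 genes that averaged 5 CPM or more. The comparison is descriptive, since the rule chose both classes from these cells, and the median log2 ratio of all genes was 0.04. A gene could reach 5 CPM through 1 class alone, which made a difference between the classes more likely. The counts of listed genes given below therefore describe the lists and support nothing about them.

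**Figure D2:**
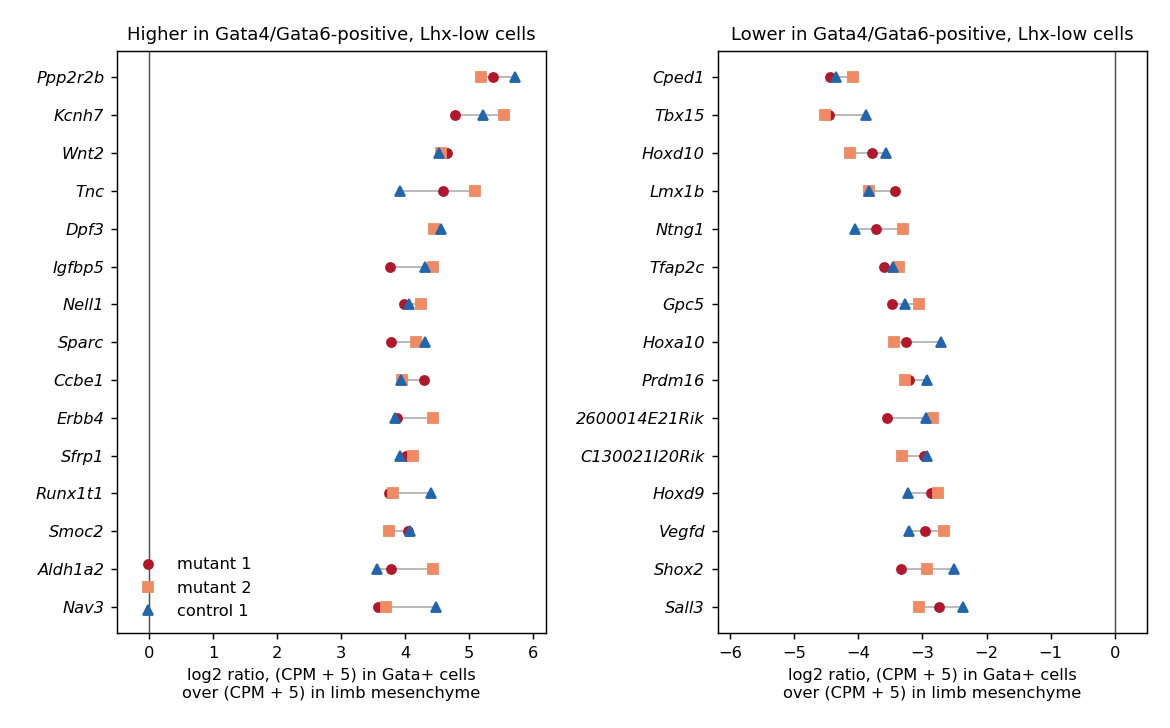
Log2 ratio (CPM plus 5) of Gata-positive cells to limb mesenchyme, for the 15 highest and 15 lowest genes at 20 CPM or more in the higher class, with a point per library. Ppp2r2b, Kcnh7 and Wnt2 head the higher genes and Cped1, Tbx15 and Hoxd10 the lower ones, and the 3 libraries share the sign for every gene drawn.

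Ppp2r2b, a regulatory subunit of protein phosphatase 2A, had the largest mean ratio among these genes, with 389, 300 and 383 CPM in Gata-positive cells against 4.48, 3.36 and 2.37 CPM in limb mesenchyme (mean log2 ratio 5.43 ± 0.27, SD, n = 3). Tnc, the matrix glycoprotein tenascin C, had 273, 315 and 206 CPM in Gata-positive cells against 6.47, 4.35 and 8.90 CPM in limb mesenchyme (4.54 ± 0.59). Sfrp1, a secreted WNT inhibitor, had 429, 270 and 269 CPM in Gata-positive cells against 21.9, 10.8 and 13.1 CPM in limb mesenchyme (4.02 ± 0.10). The classes did not overlap for any of the 3 genes. Of 40 matrix genes listed, 13 were higher and 1, Nid1, was lower, and 5 of the list averaged 5 CPM in Gata-positive cells alone.

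Of 16 mesothelium and coelomic genes listed, 8 averaged 5 CPM in Gata-positive cells and 1 of these did so in limb mesenchyme, and 7 were higher by the 2-fold rule. Wt1 had 94.4, 87.6 and 49.4 CPM in Gata-positive cells against 1.04, 0.718 and 0.222 CPM in limb mesenchyme, and Podxl, a sialomucin of the apical surface, had 75.01, 54.8 and 65.3 CPM in Gata-positive cells against 2.97, 1.73 and 1.30 CPM in limb mesenchyme. Of 20 visceral mesoderm genes listed, 11 averaged 5 CPM in Gata-positive cells and 6 of these did so in limb mesenchyme, and 7 were higher. Hand1, a basic helix-loop-helix factor of the lateral mesoderm, had 29.7, 24.9 and 70.2 CPM in Gata-positive cells against 0.624, 0.975 and 0.667 CPM in limb mesenchyme. Of the somatic and limb-field genes, Msx1, Meox2, Lmx1b, Tfap2c and Shox2 were lower and Meis2 was higher. Prrx1 was lower too, but the rule used it to choose limb mesenchyme, as it used Tbx5 and Twist1. Tbx5, which starts the forelimb programme, had close values in both classes, with 122, 104 and 105 CPM in Gata-positive cells against 126, 107 and 110 CPM in limb mesenchyme (-0.05 ± 0.02). Lmx1b, which sets dorsal limb identity, had 17.0, 9.87 and 8.69 CPM in Gata-positive cells against 233, 206 and 190 CPM in limb mesenchyme.

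Hoxa9, Hoxa10, Hoxa11, Hoxd9 and Hoxd10 were lower in Gata-positive cells. Of 16 posterior paralogues (9 to 13) listed, these 5 were lower and none was higher, and 4 averaged 5 CPM in limb mesenchyme alone. Hoxd10 had 0.944, 1.54 and 1.13 CPM in Gata-positive cells against 77.5, 109 and 68.0 CPM in limb mesenchyme, and Hoxd9 had 26.6, 18.9 and 21.8 CPM in Gata-positive cells against 226, 157 and 247 CPM in limb mesenchyme. Of 11 middle paralogues (5 to 8) listed, Hoxc8 was higher and Hoxd8 lower, and of 12 anterior paralogues (1 to 4) none passed the 2-fold rule. Among the posterior genes, Hoxb9 (mean 0.70) and Hoxc9 (mean 0.49) had positive ratios, and Hoxb9 had 41.3, 22.6 and 45.1 CPM in Gata-positive cells against 23.4, 15.2 and 20.9 CPM in limb mesenchyme.

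**Figure D3:**
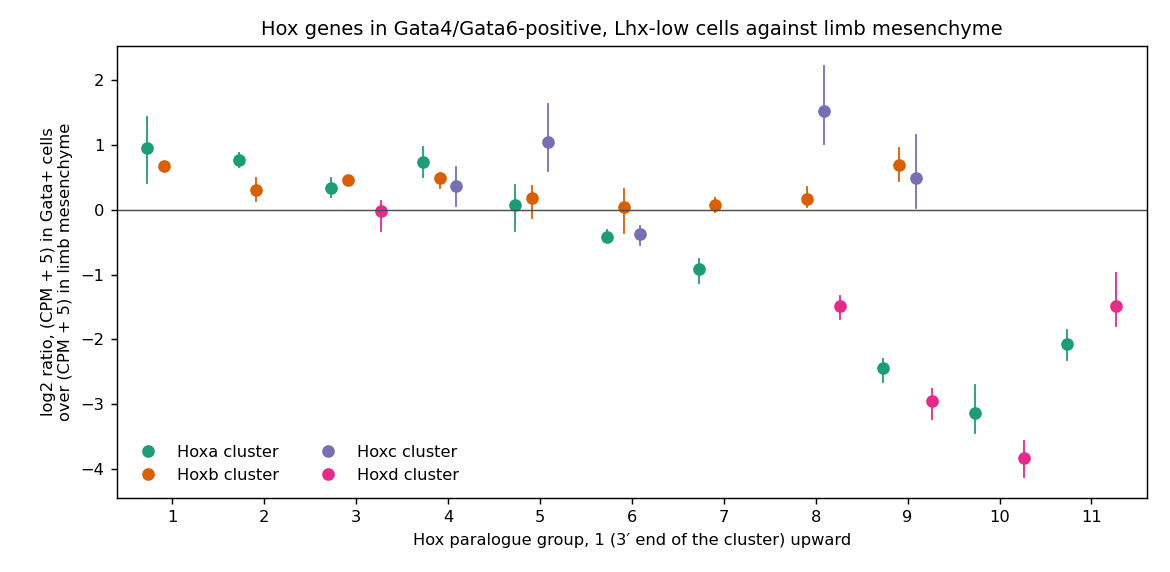
Log2 ratio (CPM plus 5) of Gata-positive cells to limb mesenchyme for the Hox genes tested, by paralogue group. Points are means and bars run over the range of the 3 libraries. Hoxd10 lies lowest, at a mean of -3.83, while Hoxb9 lies above 0.

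Signalling genes differed by pathway. Of 25 BMP genes listed, 4 were higher (Bmp5, Smad6, Bambi and Tbx2) and 3 were lower (Bmp7, Grem1 and Msx1). Bmp5, a secreted BMP ligand, had 140, 91.3 and 132 CPM in Gata-positive cells against 7.69, 4.26 and 8.08 CPM in limb mesenchyme. Of 29 WNT genes listed, 4 were higher (Wnt2, Rspo2, Dkk2 and Sfrp1) and 4 lower (Fzd10, Tcf7, Frzb and Wif1). Of 18 FGF pathway genes listed, 6 were lower, among them the FGF target genes Etv4, Etv5, Dusp6 and Spry4, and 1, the receptor Fgfr2, was higher. Spry4, a feedback inhibitor of FGF signalling, had 2.31, 3.08 and 1.66 CPM in Gata-positive cells against 26.0, 35.2 and 27.2 CPM in limb mesenchyme. Of 24 guidance genes listed, 8 were higher, among them Robo2, a receptor for Slit ligands, at 420, 276 and 315 CPM in Gata-positive cells against 55.9, 41.8 and 27.5 CPM in limb mesenchyme. The 36 S phase, 47 G2 and mitosis and 19 cohesin genes tested had none past 2-fold.

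The mesenchyme between the classes, 1020 cells with Prrx1, Tbx5 and Twist1 but little Lhx2 and Lhx9, was intermediate for several of these genes. It had 44.8, 22.9 and 41.3 CPM of Wnt2, 501, 272 and 527 CPM of Kcnh7 and 93.7, 100 and 70.0 CPM of Lmx1b. Hoxb9 was highest there, at 82.8, 43.9 and 66.8 CPM.

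In mutant against control Gata-positive cells, 35 genes rose (0.336% of 10403 genes tested) and 25 fell (0.24%), together 0.577%, by edgeR's quasi-likelihood test with Benjamini-Hochberg adjustment. Both mutant libraries lay on one side of the control for all 60, which a call with 1 control library nearly requires. That order describes the called genes, here and below, and adds no support to the test. With 1 control library, only the 2 mutant libraries show how far replicates differ, and the fit takes the control to vary by as much (1 residual degree of freedom). In this fit the prior degrees of freedom were infinite, so each p-value used a spread estimated over all genes and not the gene's own. Of the 60, 6 were called after thinning to 5000 UMIs. None was called among members with a Gata4 UMI, where 333 genes had an unadjusted p under 0.05. The folds of Cdkn1a (5.49), Ptprt (5.08) and Hand1 (-1.30) there were close to those given below. Other folds moved further, to smaller values for Dcc (0.03 there against 1.60 in all members) and Ano3 (1.40 against 2.10), and to a larger fall for Gal (-2.70 against -2.06). Median mitochondrial UMIs per Gata-positive cell were 3.19% and 2.57% in mutants and 2.22% in the control, and their part in these calls was not tested. In limb mesenchyme, 134 genes rose (1.34% of 9980) and 79 fell (0.792%), together 2.13%. Of the 60, 30 were also called there (50.0% of the 60 and 14.1% of 213), all with the same sign, and 19 could not be tested there because of their level.

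**Figure D4:**
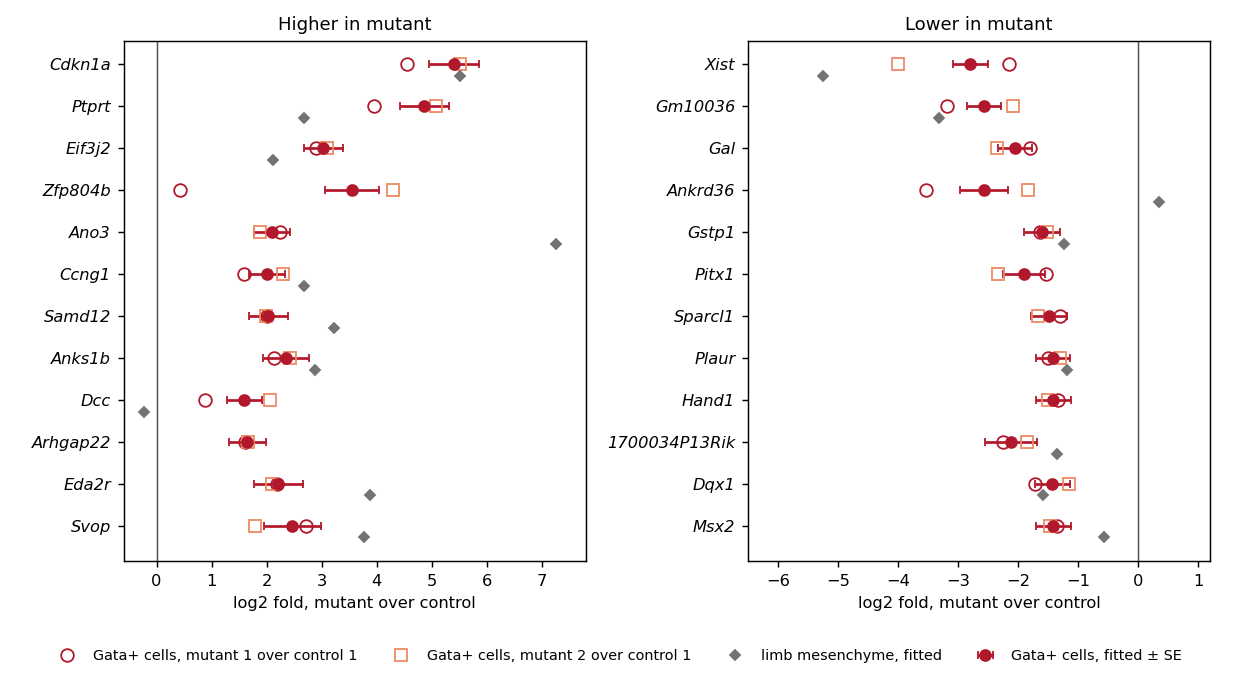
Log2 fold of mutant over control for the 12 genes of smallest p in each direction in Gata-positive cells. Filled circles are the fitted folds with their SE, open symbols are each mutant library over the control library, and grey diamonds are the fitted folds in limb mesenchyme, drawn where the gene could be tested there. Cdkn1a has the highest fitted fold in Gata-positive cells, and Ano3 has 2.10 there against 7.25 in limb mesenchyme.

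Cdkn1a, the p53-induced cyclin-dependent kinase inhibitor p21, had the largest rise of the 60. It had 20.8 and 38.3 CPM in mutant Gata-positive cells and 0.663 CPM in control ones (log2 fold change 5.41, SE 0.45, adjusted p = 1.21e-28). The groups did not overlap, and limb mesenchyme had 66.9 and 57.4 CPM in mutant against 1.30 CPM in control (5.51). The difference between the classes in this change was -0.14 on the log2 scale (adjusted p = 0.995). Few cells carried it: a Cdkn1a UMI was found in 34 of 236 (14.4%, 95% interval 10.2 to 19.6%) and 23 of 187 (12.3%, 7.96 to 17.9%) mutant cells and in 6 of 232 control cells (2.59%, 0.95 to 5.54%). After thinning to 5000 UMIs the shares were 5.73% and 7.30% in mutant cells and 0 of 210 in control cells. Taking a count of 0 as up to 3 cells, this allows up to 1.43% of control cells with a UMI at that depth. Thinned erythroid barcodes had 1.00%, 2.21% and 2.37%. Unthinned erythroid barcodes had a Cdkn1a UMI in 5.13%, 7.002% and 6.98%. The 24 and 19 cells with most Cdkn1a UMIs held 94.9% and 98.7% of them in the mutant libraries. Within the mutant libraries, cells with a Cdkn1a UMI had 281 and 254 CPM of Ano3 against 10.1 and 6.37 CPM in the others, and 92.9 and 194 CPM of Ccng1 against 12.5 and 15.8 CPM. The 6 control cells with a Cdkn1a UMI had 136 CPM of Ano3 against 6.96 CPM in the other control cells, and 9.68 CPM of Ccng1 against 7.78 CPM.

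Of 27 p53 target genes tested, Cdkn1a among them, 4 rose and none fell, with a median log2 fold change of 0.40 against -0.0037 for all genes, and 14 of 28 rose in limb mesenchyme (median 0.89). Ccng1, cyclin G1, had 25.5 and 39.6 CPM in mutant cells and 7.83 CPM in control cells (2.01, adjusted p = 5.92e-07), and Eda2r, a member of the TNF receptor family, had 13.5 and 12.1 CPM in mutant cells against 2.65 CPM in control cells (2.21, adjusted p = 0.000355). Trp53inp1, which relays p53 signals, had 14.3 and 16.8 CPM in mutant cells against 4.84 CPM in control cells (1.63, adjusted p = 0.00736). Mdm2, the ubiquitin ligase that degrades p53, had 69.4 and 74.9 CPM in mutant cells against 43.9 CPM in control cells and did not pass the test. The groups did not overlap for the called genes among these, an order that a call with 1 control library nearly requires. Ano3, a member of the anoctamin family, had 53.8 and 39.5 CPM in mutant cells against 10.5 CPM in control cells (2.10, adjusted p = 1.33e-07). Ptprt, a receptor tyrosine phosphatase, had 17.0 and 35.3 CPM in mutant cells against 0.862 CPM in control cells (4.86, SE 0.44, adjusted p = 4.66e-24). With a Gata4 plus Gata6 threshold of 2 CP10K, Ano3 (0.66), Eda2r (1.51) and 4 other named genes were no longer called. Trp53inp1 (0.96) was not called there either, and 33 of the 60 calls remained. DESeq2 called 10 of the 60, among them Cdkn1a, Ptprt, Ano3 and Ccng1, and left out Eda2r and Trp53inp1.

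Among the 25 genes that fell were Hand1, Msx2, Pitx1, Postn, Acta2 and Gal. Hand1 was the sole call among 11 visceral mesoderm genes tested (3 had an unadjusted p under 0.05), and of 8 mesothelium and coelomic genes none was called by edgeR or DESeq2 (1 had one). Hand1 had 29.7 and 24.9 CPM in mutant cells and 70.2 CPM in control cells (-1.42, SE 0.29, adjusted p = 0.000444). Msx2, a homeodomain gene induced by BMP signals, had 31.5 and 27.3 CPM in mutant cells against 75.5 CPM in control cells (-1.41, adjusted p = 0.000597), and Pitx1, a hindlimb and flank homeodomain factor, had 7.24 and 3.85 CPM in mutant cells against 20.1 CPM in control cells (-1.90, adjusted p = 6.44e-05). Postn, the matrix protein periostin, had 26.9 and 31.9 CPM in mutant cells against 68.7 CPM in control cells (-1.27, adjusted p = 0.00408), and Acta2, smooth muscle actin, had 18.9 and 33.2 CPM in mutant cells against 58.1 CPM in control cells (-1.20, adjusted p = 0.00657). Gal, the neuropeptide galanin, had 21.2 and 13.6 CPM in mutant cells against 69.8 CPM in control cells (-2.06, adjusted p = 4.8e-10). All 6 had both mutant libraries below the control. DESeq2 called Gal (adjusted p = 0.000814) and none of the other 5, with adjusted p of 0.11 for Hand1, 0.094 for Msx2, 0.37 for Postn, 0.59 for Pitx1 and 1.00 for Acta2. Of the 25 genes that fell, 6 stood higher in Gata-positive cells than in limb mesenchyme, and so did 3 of the 35 that rose.

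The keratin-positive Gata cells had high levels of 4 of these genes, with 252, 456 and 399 CPM of Hand1, 89.6, 102 and 128 CPM of Pitx1, 253, 3348 and 667 CPM of Postn and 323, 1015 and 797 CPM of Acta2, but 3.00, 9.74 and 11.1 CPM of Gal. Their share was lower in mutants, 1.81% and 1.67%, against 3.27% in the control, and their part in these falls was not tested. The gate capped Krt8 plus Krt18 in every member, so their levels are description only. Krt8 in the Gata-positive cells had 64.0 and 50.0 CPM in mutants and 66.4 CPM in the control, and Krt18 had 75.2 and 88.2 CPM in mutants and 78.7 CPM in the control. In members with Prrx1, Tbx5 and Twist1 together under 2 CP10K, the fold of Pitx1, Acta2 and Postn was positive, at 1.43, 0.25 and 2.01.

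The gene lists otherwise gave few calls. By edgeR none of the 24 Hox and 20 WNT genes tested passed in Gata-positive cells (3 and 2 had an unadjusted p under 0.05), and none of 19 cohesin, 36 S phase and 47 G2 and mitosis genes did (1, 0 and 0 had one). DESeq2 called none of them either. Of 5 heart muscle genes tested, Myl4, a myosin light chain, rose, with 5.98 and 19.2 CPM in mutant cells against 4.11 CPM in control cells (1.57, adjusted p = 0.0299), and its fold was -0.35 after thinning. Wnt2, Upk3b and Kcnh7 had log2 fold changes of 0.04, 0.43 and -0.02, none of which passed. Wt1 had 94.4 and 87.6 CPM in mutant cells against 49.4 CPM in control cells (0.83) and did not pass (adjusted p = 0.696). Cre transcript was found in 11 of 236 and 6 of 187 mutant cells and 0 of 232 control cells. In limb mesenchyme it was found in 34 of 674 and 104 of 1505 mutant cells and 0 of 510 control cells. Esco2 had 21.1 and 20.3 CPM in mutant Gata-positive cells against 30.2 CPM in control ones (-0.60, SE 0.28) and was not called. Where the Esco2 reads lie relative to the floxed exon is unknown here, so this value does not check the deletion.

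Xist, the RNA that silences an X chromosome in female cells, had 26.0 and 6.67 CPM in mutant cells against 109 CPM in control cells (-2.79, adjusted p = 2.76e-17), the largest fall of the 25. DESeq2 did not call Xist (log2 fold change -2.81). Cells with a Xist UMI and no Y-linked UMI numbered 7, 3 and 26, and those with a Y-linked UMI and no Xist UMI 218, 165 and 170. In limb mesenchyme they numbered 5, 7 and 66, and 616, 1343 and 293. The mutant counts in these 2 classes lie far from the stated 1 female sample of 3. In primitive erythroid barcodes the Xist-only cells numbered 36, 67 and 107, and the Y-only cells 521, 332 and 239. The balance of Xist and Y-linked UMIs thus differed together with genotype, by an amount that varied with cell class. The part of sex mix in the fall of Xist was not tested. Restricting the fit to the Y-positive cells left 54 of the 60 calls. Genes that share reads with near copies or pseudogenes, among them Gm10036, Eif3j2, Gm15283 and Hmga1b, are uncertain. Zfp804b and Ddit4 rested on 1 library, with log2 folds of 0.43 and 4.30 and of 2.04 and 0.41 in mutant 1 and mutant 2. Other calls were uneven too, among them Gm15283 (1.94 and 0.19), Myl4 (0.43 and 2.17) and Lum (-3.05 and -0.42).

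The mutant effect differed between classes for 19 of 10321 genes (0.184%), 1 more positive (0.00969%) and 18 more negative (0.174%) in Gata-positive cells. Ano3 differed by -5.17 on the log2 scale (SE 0.27, adjusted p = 0.000982), with 53.8 and 39.5 CPM in mutant against 10.5 CPM in control Gata-positive cells and 68.8 and 51.1 CPM in mutant against 0.371 CPM in control limb mesenchyme. Its mutant values overlapped between the classes, so the difference lay mainly in the control library, where the limb mesenchyme value rests on few UMIs. Ahnak, a large scaffold protein, had 187 and 157 CPM in mutant against 185 CPM in control Gata-positive cells and 11.1 and 9.96 CPM in mutant against 3.41 CPM in control limb mesenchyme (-1.73, adjusted p = 0.0139). Ahnak overlapped between genotypes in Gata-positive cells and was higher in both mutant libraries in limb mesenchyme. Fas, a death receptor and p53 target, had 12.4 and 4.87 CPM in mutant against 8.23 CPM in control Gata-positive cells and 5.11 and 3.96 CPM in mutant against 0.0742 CPM in control limb mesenchyme (adjusted p = 0.0415), which rests on few UMIs in control limb mesenchyme. The summed erythroid globins were 98.3, 89.4 and 73.9 CPM in Gata-positive cells and 678, 294 and 105 CPM in limb mesenchyme, and their part in these differences was not tested.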

How the data were processed

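Forelimb bud cells were captured with the 10x Genomics 3′ kit (version 3), per the labels' protocols, and the authors deposited UMI counts per gene and barcode. Cell Ranger 7.0.0, Seurat 4.0.0 and the mm10 build are named in the submitters' processing notes. Whether counting used strand is not given. The 3 libraries held 7219, 8755 and 6527 barcodes and 178159788, 225032823 and 202581488 UMIs (mutant 1, mutant 2 and control). Of 31054 features, 31053 were Ensembl genes and 1 was the CRE sequence.

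Cells were classed by the thresholds stated in the text, and UMIs were summed per library and class. Genes that averaged 5 CPM or more were tested with edgeR 4.0.16 (quasi-likelihood F test, TMM, R 4.3.3) and Benjamini-Hochberg adjustment at 0.05 over all genes tested, and the differences between classes with an interaction term and a term per library. Each library pools embryos, so the replicate is the pool. In the mutant fit of each class, a p-value used a spread between pools shared over genes, with infinite prior degrees of freedom. The interaction fit had 6.68 prior and 1 residual degrees of freedom. Ratios between classes used CPM plus 5 within each library. Doublets were called with Scrublet in scanpy 1.11.5 (58, 80 and 17 of kept barcodes, 0, 1 and 0 of the members) and were kept in the main values. Pairs of libraries shared 66, 65 and 117 barcodes, none of them among the members. Named genes were the 12 of smallest p in each direction for the mutant comparison and 6 for the interaction. Both sets were drawn only from genes with the same sign in both mutant libraries. The 15 largest ratios in each direction between classes and up to 4 members of each list were named too. Fas, Nid1, Hoxc9 and list members given beyond these were chosen after their values were seen. Alternatives covered normalization, DESeq2 1.42.0, filters, gates, depth, doublets and left-out libraries. The cleaner limb mesenchyme gate and the 10000 UMI, limb-factor and Y-linked subsets were chosen after seeing the data. The members and lists were chosen with earlier results of these data known. 1 gene of the lists is not reported here.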

Additional observations from a re-analysis of the deposited data

Results flagged for a closer look

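The mutant effect in Gata-positive cells minus that in limb mesenchyme passed edgeR's interaction test for 7 of the genes chosen by the rule for naming. Each value is a difference of log2 fold changes. DESeq2 called 24 genes, with 17 of edgeR's 19 among them. Ano3 gave -5.17 (adjusted p = 0.000982), Hs3st4 -2.23 (adjusted p = 0.0213), Cobll1 -2.03 (adjusted p = 0.0213), Ahnak -1.73 (adjusted p = 0.0139), Nav3 -1.72 (adjusted p = 0.016) and Lrba -1.25 (adjusted p = 0.0139). Tsix gave 3.45 (adjusted p = 0.0299). Hs3st4, a heparan sulfate sulfotransferase, had 64.7 and 38.7 CPM in mutant and 31.2 CPM in control Gata-positive cells, and 15.7 and 11.1 CPM in mutant and 1.74 CPM in control limb mesenchyme. Cobll1 had 35.5 and 34.4 CPM in mutant and 62.9 CPM in control Gata-positive cells, and 14.8 and 11.3 CPM in mutant and 5.71 CPM in control limb mesenchyme. Tsix had 2.41 and 1.80 CPM in mutant and 9.35 CPM in control Gata-positive cells, and 0.386 and 0.295 CPM in mutant and 16.7 CPM in control limb mesenchyme. Tsix is antisense to Xist, and reads of the 2 genes cannot be told apart where the counting did not use strand.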

How the results depend on the processing

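The 60 mutant calls in Gata-positive cells became 10 with DESeq2, 155 with a minimum of 1 UMI, 129 at a mean of at least 1 CPM, 22 at 20 CPM, 96 under 5% mitochondrial UMIs, 8 after thinning to 5000 UMIs and 0 in members with a Gata4 UMI (333 had an unadjusted p under 0.05). The 213 limb mesenchyme calls became 81, 705, 476 and 46 under the first 4 of these and 54 after thinning. A Gata4 plus Gata6 threshold of 2 CP10K again gave 60 calls in Gata-positive cells, but 33 of them were among the main 60. The 19 interaction calls became 29 with RLE size factors, 372 with 1 UMI, 12 at 1 CPM, 31 with equal numbers of members, 45 with at least 2 Gata UMIs, 0 with a Gata4 UMI, 56 with at least 10000 UMIs, 126 with Prrx1, Tbx5 and Twist1 at 2 CP10K or more and 134 under it, 73 under 5% mitochondrial UMIs, 48 without doublets and 32 after thinning. A ratio of at least 2 on the log2 scale left 146 of 468 genes between classes.

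Shares in mutant 1, mutant 2 and control were 4.80%, 1.94% and 4.16% at 2 CP10K of Gata4 plus Gata6, 3.96%, 1.63% and 4.33% with a Gata4 UMI, 0.904%, 0.881% and 1.29% with Prrx1, Tbx5 and Twist1 under 2 CP10K and 6.45%, 3.34% and 6.38% above it. Mutant 2 gave 3.53% after thinning, and the control 6.14% with 500 genes, 6.44% with 10000 UMIs and 5.62% with Y-linked and no Xist UMIs. Thinned to 10000 UMIs, and with no thinning, Wnt2 was found in 72.8% and 83.1% of mutant 1, 58.0% and 81.8% of mutant 2 and 62.1% and 76.7% of control cells, and Upk3b in 30.9% and 41.9%, 40.8% and 46.5%, and 31.3% and 38.8%. Cdkn1a with no thinning was found in 14.4%, 12.3% and 2.59%.

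Signs turned for Pitx1 (1.43), Acta2 (0.25), Postn (2.01) and Lum (3.67) in members with Prrx1, Tbx5 and Twist1 under 2 CP10K, and for Myl4 (-0.35) and Postn (0.24) after thinning; the cause was not tested. Over 31 named genes, 448 of 559 tested values stayed on their side of the threshold and 105 no longer passed. Leaving out a mutant library leaves no residual degrees of freedom, so only folds were given, from 4.54 to 5.50 for Cdkn1a. Leaving out the control leaves no comparison. No paired analysis was possible because the control label carries no replicate number.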

Other observations

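Of 18 imprinted growth genes listed, 6 were higher by the 2-fold rule in Gata-positive cells than in limb mesenchyme and none was lower, a description of genes of which 17 averaged 5 CPM in limb mesenchyme too. None of the 18 passed edgeR's mutant test (1 had an unadjusted p under 0.05, and DESeq2 called none). Dlk1, a Notch ligand relative expressed from the paternal allele, had 687, 590 and 664 CPM in Gata-positive cells and 105, 83.3 and 113 CPM in limb mesenchyme (mean log2 ratio 2.64). Meg3, a maternally expressed long RNA of the same locus, had 1214, 1045 and 1035 CPM in Gata-positive cells against 249, 173 and 169 CPM in limb mesenchyme (2.47). Both were above limb mesenchyme in every library. Plagl1, a zinc-finger factor, had 132, 76.9 and 67.0 CPM in Gata-positive cells against 8.97, 6.86 and 4.45 CPM in limb mesenchyme (3.00).

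Adhesion genes were also uneven, with 6 of 23 listed higher (Cdh2, Cdh3, Pcdh7, Alcam, Ncam1 and Itga8) and 2 lower (Cdh6 and Pcdh19). Alcam, an immunoglobulin adhesion molecule, had 1155, 977 and 785 CPM in Gata-positive cells and 150, 77.5 and 99.7 CPM in limb mesenchyme (3.13). Cdh6, a type II cadherin, had 40.8, 27.2 and 41.7 CPM in Gata-positive cells against 125, 88.7 and 94.9 CPM in limb mesenchyme (-1.38). Of 12 smooth muscle genes listed, 3 of which averaged 5 CPM in Gata-positive cells alone, Acta2, Tagln, Tpm1 and Myl9 were higher and none lower. Tagln had 57.4, 103 and 104 CPM in Gata-positive cells against 1.51, 1.58 and 0.371 CPM in limb mesenchyme (3.88).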
